A study of Mus musculus with 2 samples.

Results

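Drd2 Htr4 Kctd8 nuclei are amygdala nuclei that held RNA of the dopamine D2 receptor gene Drd2 together with that of the serotonin receptor gene Htr4 and of Kctd8. They were chosen by their own counts: at least 1 Drd2 UMI (a counted RNA molecule), at least 2 Htr4 and 2 Kctd8 UMIs, and no UMI of Slc17a6 or Slc17a7, the vesicular glutamate transporters. Of 18924 nuclei with at least 500 genes and at most 5% mitochondrially encoded UMIs, 630 met this rule. They came from 239 of 8133 nuclei of the library labelled Sema6d-/- (KO) and from 391 of 10791 nuclei of the wild-type library (WT). Sema6d encodes a membrane-bound semaphorin, one of the axon guidance cues read by plexin receptors. Both genotypes carry the strain label C57BL6/J and were aged 6 to 8 weeks, and nuclei were profiled with the second version of a 10x kit that tags RNA near its 5′ end.

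Each genotype was 1 library, so no difference between genotypes was tested, and genotype and library preparation cannot be told apart. The sources used here do not give how many animals were pooled, their sex or which part of Sema6d is missing. Levels are UMIs summed over the nuclei of a set per 1000000 UMIs of that set (CPM), and log2 ratios set KO over WT. Ranges in brackets are exact 95% intervals, which cover counting error only. The Drd2 Htr4 Kctd8 nuclei held 2705457 UMIs in KO and 4476480 in WT, with medians of 9680 and 9107 UMIs per nucleus. The libraries shared 116 cell barcodes among the nuclei kept and 0 among the Drd2 Htr4 Kctd8 nuclei.

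The D2 receptor couples to inhibitory G proteins and lowers cyclic AMP, and in the striatum it marks the medium spiny neurons of the indirect pathway, which also express the adenosine receptor gene Adora2a and the enkephalin precursor gene Penk. The serotonin receptor made from Htr4 couples to the stimulatory G protein and raises cyclic AMP. Kctd8 encodes an auxiliary subunit of the GABA-B receptor, which shapes the time course of that receptor's G protein signal.

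The rule did not pick out a single kind of nucleus. When all nuclei were clustered, 120 of the 239 KO nuclei (50.2%, 43.7 to 56.7) and 217 of the 391 WT nuclei (55.5%, 50.4 to 60.5) lay in 1 cluster, whose leading genes were Drd2, Adora2a, Nt5e and Gpr6. A second cluster, led by Calcrl, Pde1c and Arhgap6 and also by Penk, Adora2a, Drd2 and Otof, held 57 KO nuclei (23.8%, 18.6 to 29.8) and 73 WT nuclei (18.7%, 14.9 to 22.9). They are called the Adora2a-Gpr6 and the Calcrl-Pde1c cluster here. The other 62 KO and 101 WT nuclei were spread over the remaining clusters, among them 1 led by Baiap3 and Prlr (15 KO and 12 WT nuclei), 1 led by Lhx8 and Pappa (8 and 18), 1 led by the microglial genes Dock2 and Csf1r (12 and 10) and 1 led by Prr5l, Hapln2 and Aspa (7 and 16).

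The nuclei outside the 2 main clusters differed from the rest in depth and in doublet calls. Their median depth was 13975.5 UMIs in KO and 14397 in WT, against 8855 and 8217 in the Adora2a-Gpr6 cluster. Scrublet called 16 of the 62 KO nuclei there doublets (25.8%, 15.5 to 38.5) and 40 of the 101 WT nuclei (39.6%, 30.01 to 49.8). In the 2 main clusters together it called 1 KO nucleus and 0 WT nuclei. Results below are therefore also given by cluster.

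**Figure D1:**
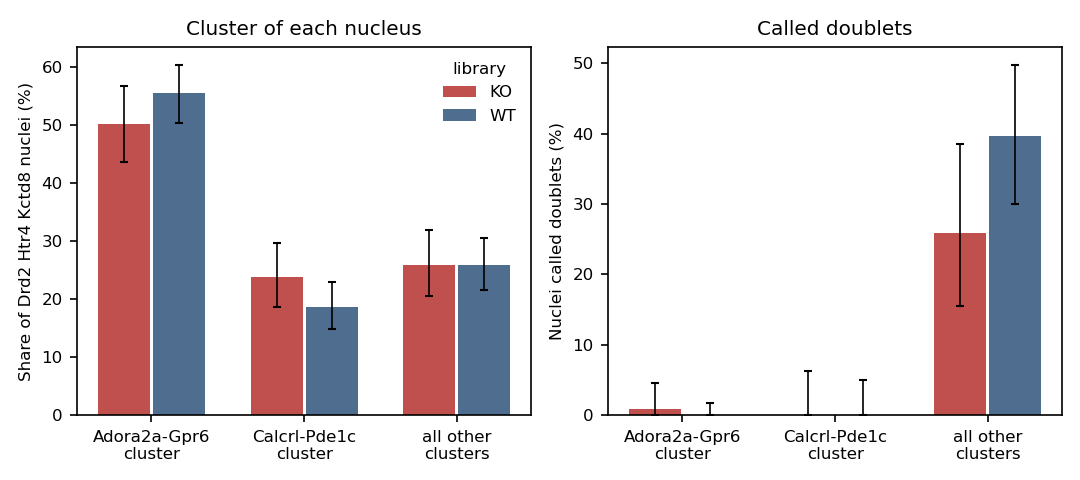
Share of the Drd2 Htr4 Kctd8 nuclei in each set of clusters (left, %) and share of those nuclei called doublets (right, %), KO left of WT, with exact 95% intervals. The Adora2a-Gpr6 cluster holds 50.2% of the KO and 55.5% of the WT nuclei, and nearly all called doublets lie outside the 2 named clusters, at 25.8% in KO and 39.6% in WT.

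A UMI of Gad1 or Gad2, the genes of the enzymes that make GABA, was found in 95.8% of KO (92.4 to 98.0) and 96.4% of WT Drd2 Htr4 Kctd8 nuclei. With each nucleus thinned to 3000 UMIs, Gad2 was found in 46.4% of KO (39.99 to 53.0) and 52.1% of WT nuclei (47.0 to 57.1), against 21.2% (8.98 to 38.9) and 13.9% (4.67 to 29.5) of oligodendrocyte-like nuclei, read as the level of free RNA. Gad1 was found in 39.7% of KO (33.5 to 46.3) and 43.6% of WT nuclei, against 21.2% and 13.9%, and its KO intervals overlapped. Most also carried the markers of D2 medium spiny neurons: 197 KO nuclei (82.4%) and 300 WT nuclei (76.7%) had Adora2a together with at least 2 UMIs of Rgs9, a G protein regulator enriched in striatum.

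The genes of the rule describe how the nuclei were chosen and are no finding. A nucleus held a median of 6 Drd2 UMIs in KO, between 1 and 23, and 6 in WT, between 1 and 24. Htr4 had a median of 3 UMIs in both libraries, up to 17 in KO and 19 in WT. Kctd8 had 6 in KO and 5 in WT, up to 55 and 76.

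Nuclei just inside and just outside the Drd2 limit differed in Adora2a. The 23 KO and 37 WT nuclei with exactly 1 Drd2 UMI had 48.8 and 41.1 CPM of Adora2a, and the 227 KO and 274 WT nuclei that met all but the Drd2 limit had 14.3 and 11.98 CPM. Nuclei with 1 Htr4 UMI that met the rest (92 in KO, 174 in WT) or 1 Kctd8 UMI (49 and 103) lay just outside. Adora2a differed less across these 2 limits: it stood at 244 CPM in KO and 227 CPM in WT with 1 Htr4 UMI and at 250.2 and 214 CPM with 2, and at 206 and 241 CPM with 1 Kctd8 UMI and at 199.8 and 234 CPM with 2. A further 72 nuclei in each library were kept out only by a glutamate transporter UMI.

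Pde1c and Otof, a calmodulin-dependent phosphodiesterase and a calcium sensor of vesicle release, belong to the marker set given for these nuclei, but were highest in those of the Calcrl-Pde1c cluster. Otof stood at 197 CPM in KO and 176 CPM in WT there, against 10.6 and 11.5 CPM in nuclei of the Adora2a-Gpr6 cluster and 56.0 and 35.0 CPM outside both. Pde1c stood at 761 CPM in KO and 655 CPM in WT in the Calcrl-Pde1c cluster, against 220.3 and 227 CPM in the Adora2a-Gpr6 cluster. Both genes helped to define the clusters, so these gaps are a description. Both genes were also compared with other Drd2 nuclei. Those had a Drd2 and a Gad1 or Gad2 UMI and no glutamate transporter UMI, and lacked the pair of Htr4 and Kctd8 (715 KO, 1639 WT). Over all Drd2 Htr4 Kctd8 nuclei neither gene differed 2-fold from them. Pde1c was lower in both libraries, at 336 CPM in KO and 324 CPM in WT, against 388 and 376 CPM in other Drd2 nuclei. Of its KO UMIs in Drd2 Htr4 Kctd8 nuclei, 14.4% came from 1 nucleus. Otof was at 65.8 CPM in KO and 47.8 CPM in WT, and at 62.9 and 43.9 CPM in other Drd2 nuclei.

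Thinning every nucleus to 3000 UMIs put the shares at equal depth, with 239 KO and 390 WT nuclei left. Otof was then found in 11.7% of KO (7.93 to 16.5) and 9.49% of WT nuclei, with 36.8% and 27.4% in the Calcrl-Pde1c cluster and 2.50% and 2.78% in the Adora2a-Gpr6 cluster. Before thinning the shares over all of them were 25.5% in KO and 20.7% in WT. A level that free RNA could give was read from oligodendrocyte-like nuclei, of which 33 in KO and 36 in WT were deep enough. Otof had a UMI in 3.03% and 2.78% of those, and its share in the Adora2a-Gpr6 cluster was no higher. Pde1c was found in 43.9% of KO (37.5 to 50.5) and 42.3% of WT nuclei (37.4 to 47.4) after thinning. In oligodendrocyte-like nuclei it was found in 36.4% (20.4 to 54.9) and 27.8% (14.2 to 45.2), with overlapping intervals. Over both libraries Pde1c stood at 183 CPM in the oligodendrocyte-like cluster. In a microglial cluster of similar depth (medians of 1551 UMIs in KO and 1561 in WT) it stood at 13.5 CPM. For Pde1c the oligodendrocyte-like share is therefore not a level of free RNA alone. Adora2a was found in 46.4% of the nuclei in both libraries, against 9.09% in KO and 8.33% in WT oligodendrocyte-like nuclei, whose median depth before thinning was 1820.5 and 1890 UMIs.

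Levels of the striatal genes differed between the clusters, which these genes helped to define. Adora2a stood at 318 CPM in KO and 282 CPM in WT in the Adora2a-Gpr6 cluster, at 239 and 226 CPM in the Calcrl-Pde1c cluster, and at 118 and 82.0 CPM elsewhere. Pde10a, a phosphodiesterase abundant in medium spiny neurons, ran from 6276 CPM in KO and 5873 CPM in WT in the Adora2a-Gpr6 cluster to 3055 and 3838 CPM in the Calcrl-Pde1c cluster. The cannabinoid receptor gene Cnr1 differed most between the 2 clusters among these, with 612 CPM in KO and 385 CPM in WT in the first against 107 and 81.2 CPM in the second. Drd1, the dopamine receptor gene of the direct pathway, was low, at 21.1 CPM in KO and 27.3 CPM in WT. At 3000 UMIs, Drd1 and Drd2 were found together in 2 of 239 KO nuclei (0.837%) and in 18 of 390 WT nuclei (4.62%). Unthinned, 43.6% of the WT nuclei outside the 2 clusters had a Drd1 UMI, the set in which doublets were called most often. At 3000 UMIs a Drd1 UMI was found in 2.09% of KO and 6.67% of WT Drd2 Htr4 Kctd8 nuclei, neither above the 3.03% of KO and 16.7% of WT oligodendrocyte-like nuclei. The latter shares rest on the few oligodendrocyte-like nuclei that reached that depth. Their cluster had a median depth of 1820.5 UMIs in KO and 1890 in WT.

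**Figure D2:**
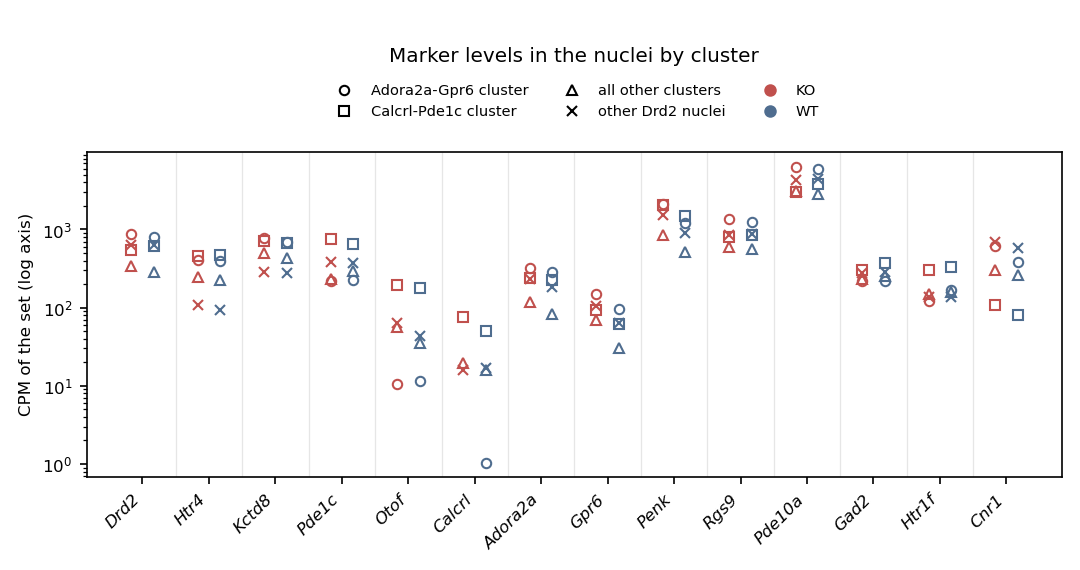
CPM on a log axis of 14 genes in Drd2 Htr4 Kctd8 nuclei of the Adora2a-Gpr6 cluster (circles), the Calcrl-Pde1c cluster (squares) and all other clusters (triangles), and in other Drd2 nuclei (crosses), KO left of WT; sets without a UMI are not drawn. Otof and Calcrl separate the 2 clusters, while Htr4 and Kctd8, used by the rule, are lowest in other Drd2 nuclei.

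The share of such nuclei differed between the libraries with the denominator. They were 2.94% of KO nuclei (2.58 to 3.33) and 3.62% of WT nuclei (3.28 to 3.99), a ratio of 0.811 (0.688 to 0.955). Among Drd2 GABA nuclei they were 24.3% in KO (21.6 to 27.1) and 18.7% in WT (17.02 to 20.5), a ratio of 1.30 (1.10 to 1.53). Within the Adora2a-Gpr6 cluster they were 26.9% of 446 KO nuclei and 21.3% of 1017 WT nuclei. The rule reads raw UMIs, so depth enters it. With every nucleus thinned to 3000 UMIs the shares of all nuclei were 0.641% in KO and 0.669% in WT, a ratio of 0.958. Nuclei of all kinds had a median of 6528 UMIs in KO and 7305 in WT.

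Besides Htr4, the serotonin receptor genes included Htr2c, whose Gq-coupled product acts on calcium release, at 357 CPM in KO and 397 CPM in WT. Htr1f, an inhibitory serotonin receptor gene, was at 169 CPM in KO and 191 CPM in WT and was highest in the Calcrl-Pde1c cluster, at 306 and 332 CPM. It was also higher than in other Drd2 nuclei, which had 138 and 139 CPM (log2 of 0.29, 0.13 to 0.46, in KO and 0.46, 0.35 to 0.58, in WT). Of 7 serotonin receptor genes compared between genotypes 1 was higher and 6 were lower in KO, with a median of -0.15, where 47% of all 12524 genes compared were higher and 53% lower and the median of all genes was -0.02.

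Kctd16, the gene of a further auxiliary subunit of the GABA-B receptor, was higher than in other Drd2 nuclei. It stood at 1255 CPM in KO and 1151 CPM in WT, against 984 and 1030.0 CPM in other Drd2 nuclei (log2 of 0.35, 0.29 to 0.41, and 0.16, 0.11 to 0.21). The receptor's own subunit genes were no higher than in other Drd2 nuclei: Gabbr1 stood at 214 CPM in KO and 192 CPM in WT, against 234 and 217 CPM. Gabbr2 stood at 95.4 CPM in KO and 97.8 CPM in WT, against 111 and 107 CPM. Of the 7 genes of this list with enough UMIs beside Kctd8, 1 was higher and 5 were lower than in other Drd2 nuclei in both libraries, where 21.4% of all 13064 genes compared were higher and 37.6% lower in both.

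Adcy5, the main adenylyl cyclase of medium spiny neurons, stood at 690.1 CPM in KO and 751 CPM in WT (log2 of -0.12, -0.20 to -0.04). Of 17 genes for adenylyl cyclases, protein kinase A and related exchange factors, 2 were higher and 15 lower in KO, with a median of -0.17. Of all genes 47% were higher and 53% lower. By cluster, 2 were higher and 11 lower in the Adora2a-Gpr6 cluster (-0.17), 5 and 9 in the Calcrl-Pde1c cluster (-0.20) and 7 and 10 outside both (-0.01). Other Drd2 nuclei also had more lower than higher, 12 against 6 (-0.13, with 48.9% of all genes lower), so the shift was not particular to these nuclei. Pde7b and Pde4b, both cyclic AMP phosphodiesterases, were lower in KO, at 1282 CPM against 1587 CPM in WT for Pde7b and 1116 CPM against 1346 CPM in WT for Pde4b. The Pde4b difference lay mainly outside the 2 clusters, with 1239 CPM in KO and 1739 CPM in WT there, and the ratio was -0.05 in the 2 clusters without called doublets. Pde4a was also lower, at 51.7 CPM in KO and 91.1 CPM in WT (log2 of -0.82, -1.10 to -0.54), while Pde9a, which acts on cyclic GMP, was at 62.1 CPM in KO and 39.5 CPM in WT. Pde4a and Pde9a were chosen after their values were seen. Over the whole phosphodiesterase list 7 genes were higher and 10 lower in KO, with a median of -0.02, the same as for all genes.

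Set against other Drd2 nuclei of the same library, no gene outside the rule was at least 2-fold higher in both libraries (0 of 9004 genes, 0%), and 13 were at least 2-fold lower (0.144%). A gene needed 100 UMIs over both sets in each library. Tacr1, the substance P receptor gene, had 8.50 CPM in KO and 11.4 CPM in WT Drd2 Htr4 Kctd8 nuclei, against 49.2 and 69.4 CPM in other Drd2 nuclei (log2 of -2.53 and -2.61). Chat and Slc5a7, which make and recycle the components of acetylcholine and define cholinergic neurons, were lower too. Chat had 4.07 CPM in KO and 3.798 CPM in WT, against 16.99 and 21.9 CPM, and Slc5a7 had 6.28 CPM in KO, of which 88.2% came from 1 nucleus, and 7.15 CPM in WT, against 25.6 and 30.1 CPM. With every nucleus thinned, the KO ratio of Chat turned to 0.80. A count of 0 was set to 3 UMIs in ratios, which can turn a gene of so few UMIs. Its part here was not tested, so the thinned ratio cannot settle a direction. Alk, a receptor kinase gene that leads a separate Drd2 cluster with Sema3e, had 83.5 CPM in KO and 83.8 CPM in WT, against 177 and 222 CPM (-1.08 and -1.40). Within the Drd2 Htr4 Kctd8 nuclei it stood at 5.29 and 8.33 CPM in the Adora2a-Gpr6 cluster and at 209 and 182 CPM outside the 2 clusters. Frem2, Kcnk9, Chst9, Runx2 and Robo3 were also among the 10 lowest, at log2 values between -1.93 and -1.02 in both libraries. With thinning the KO ratio of Chst9 turned to 0.98, with the same limit as for Chat.

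The counts moved with the nuclei compared. Compared only with the other Drd2 nuclei that had Adora2a and at least 2 Rgs9 UMIs (459 KO, 956 WT), 45 genes were higher and 9 lower in both libraries. For the Adora2a-Gpr6 cluster alone against all other Drd2 nuclei, 0 were higher and 315 lower. That cluster was defined from expression, so its count is a description. The number of genes passing the UMI minimum can change with the nuclei and is not given for these comparisons. Their counts are therefore not shares to set against those over all the nuclei. Among gene lists, neuropeptides were lower than in other Drd2 nuclei, with 14 of 17 genes lower and 1 higher in both libraries and medians of -0.66 in KO and -0.35 in WT, where 37.6% of all genes were lower and 21.4% higher in both. Against the nuclei with Adora2a and Rgs9 the WT median was -0.043. Of 11 genes of eccentric spiny and intercalated neurons 8 were lower and 3 higher, with medians of -0.45 and -0.43. Of 14 interneuron genes 8 were lower and 3 higher, with medians of -0.54 and -0.50. The 22 striatal medium spiny genes had medians of -0.04 in KO and -0.09 in WT. Their medians were 0.40 and 0.30 for the Adora2a-Gpr6 cluster alone, and -0.25 and -0.32 against the nuclei with Adora2a and Rgs9. Striatal genes helped to define that cluster, and the latter nuclei were picked by Adora2a and Rgs9. Both shifts therefore follow in part from the choice of nuclei. Grm7, an inhibitory glutamate receptor gene, and Rarb, a retinoic acid receptor gene of the striatum, were among genes that were higher in both: Grm7 by 0.41 (0.37 to 0.45) in KO and 0.37 (0.34 to 0.40) in WT, and Rarb by 0.38 (0.32 to 0.44) and 0.27 (0.22 to 0.31).

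Sema6d RNA was counted in both libraries. In Drd2 Htr4 Kctd8 nuclei it stood at 374 CPM in KO (351 to 398) and 443 CPM in WT (424 to 463), a log2 ratio of -0.25 (-0.36 to -0.14). In the Adora2a-Gpr6 cluster the values were 176 CPM in KO and 174 CPM in WT, and outside the 2 clusters 598 and 749 CPM. Other Drd2 nuclei held 536 CPM in KO and 518 CPM in WT. Since the missing part of the gene is not given, these counts are no check of the genotype label. Plxna4, a plexin receptor gene, had 306 CPM in KO and 338 CPM in WT (-0.14, -0.26 to -0.02), and Plxna1, the other plexin gene followed here, had 7.76 and 8.27 CPM. Of 28 semaphorin, plexin and neuropilin genes 12 were higher and 16 lower in KO, with a median of -0.09.

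Between genotypes, 11 of 8120 genes with at least 100 UMIs were at least 2-fold higher in KO Drd2 Htr4 Kctd8 nuclei (0.135%) and 60 at least 2-fold lower (0.739%). Without the called doublets and the nuclei outside the 2 main clusters, 28 were lower, with the number of genes compared there not given. Ratios of all genes with at least 20 UMIs lay between -0.76 and 0.66 from the 5th to the 95th percentile. Genes named below are the 10 highest and 10 lowest among those with at least 20 CPM in the higher library.

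The gene with the highest ratio was Pla2g4e (chr2:120166412-120245335 in mm10), a phospholipase A2 gene. It had 35.5 CPM in KO (28.7 to 43.3) and 10.9 CPM in WT (8.10 to 14.5), a log2 ratio of 1.70 (1.19 to 2.22). It was higher in KO in each set: 29.96 against 9.89 CPM in WT in the Adora2a-Gpr6 cluster, 39.8 against 9.63 CPM in WT in the Calcrl-Pde1c cluster, and 35.6 against 16.6 CPM in WT in other Drd2 nuclei. Btbd9 (chr17:30215524-30576488), a BTB domain protein gene, and its neighbour Glo1 (chr17:30584936-30626871), which encodes glyoxalase 1, were both among the highest. Btbd9 had 392 CPM in KO (369 to 417) and 201 CPM in WT (188 to 215), a ratio of 0.96 (0.83 to 1.09). Glo1 had 27.7 CPM in KO and 11.8 CPM in WT (1.23, 0.70 to 1.76). Both were also higher in KO in other Drd2 nuclei, with 368 CPM in KO and 183 CPM in WT for Btbd9 and 37.6 and 12.3 CPM for Glo1. In oligodendrocyte-like nuclei Btbd9 stood at 278 CPM in KO and 145 CPM in WT. Glo1 stood at 101 CPM in KO and 25.9 CPM in WT there, above the Drd2 Htr4 Kctd8 nuclei of both libraries. The oligodendrocyte-like nuclei were shallower, with 209 Glo1 UMIs in 1096 KO nuclei and 27 in 505 WT nuclei. Drd2 Htr4 Kctd8 nuclei held 75 in 239 KO and 53 in 391 WT nuclei, so the background of Glo1 cannot be read from this CPM.

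Nefm, the medium neurofilament gene, had 87.6 CPM in KO and 43.1 CPM in WT (1.02, 0.74 to 1.30) and was higher in KO in all 3 sets of clusters. Its level in oligodendrocyte-like nuclei, 88.8 CPM in KO and 71.0 CPM in WT, was no lower than in the Drd2 Htr4 Kctd8 nuclei. The former were shallower, so this alone does not place Nefm at background. Srm, the spermidine synthase gene, had 33.6 CPM in KO and 15.4 CPM in WT. The transcription factor gene Sp2, the zinc finger gene Zfp983 and the F-box gene Fbxl18 had ratios of 1.10, 1.04 and 0.96. Rbmxl1 had 22.9 CPM in KO and 10.1 CPM in WT, and since it is a retrocopy of Rbmx the counting may have split reads between them. Ankfn1, at 52.1 CPM in KO and 23.5 CPM in WT, did not share its direction across clusters: it had 0.881 CPM in KO and 7.29 CPM in WT in the Adora2a-Gpr6 cluster, and 39.8 and 13.8 CPM in the Calcrl-Pde1c cluster and 116 and 44.3 CPM outside both.

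Among the lowest genes, Reln and Crocc were low in KO nuclei of every set. Reln (chr5:21884454-22344702), which encodes the secreted glycoprotein reelin, had 56.9 CPM in KO (48.3 to 66.7) and 241 CPM in WT (226 to 255), a ratio of -2.08 (-2.33 to -1.83). A Reln UMI was found in 67 of 239 KO nuclei and 301 of 391 WT nuclei. The level was 55.5 CPM in KO and 246 CPM in WT in the Adora2a-Gpr6 cluster, 36.2 and 275 CPM in the Calcrl-Pde1c cluster, and 92.4 and 237 CPM in other Drd2 nuclei. In oligodendrocyte-like nuclei it was 20.8 CPM in KO and 27.8 CPM in WT, well under the WT level. Crocc (chr4:141016637-141060550), the gene of the ciliary rootlet protein, had 12.9 CPM in KO (9.01 to 17.99) and 62.8 CPM in WT (55.6 to 70.6), a ratio of -2.28 (-2.83 to -1.77). Its UMIs were found in 27 KO and 185 WT nuclei. Slc26a10, an anion transporter family gene, and Mid1, a ubiquitin ligase gene, were lower in KO as well, with ratios of -1.92 and -1.78. Tiparp, an ADP-ribosyltransferase gene, had 9.98 CPM in KO and 32.6 CPM in WT (-1.71).

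Cntnap5c, a neurexin family adhesion gene, passed the 2-fold limit with 101 CPM in KO and 217 CPM in WT (-1.10, -1.30 to -0.90). In the Adora2a-Gpr6 cluster it had 7.93 CPM in KO and 148 CPM in WT, and in other Drd2 nuclei 52.9 and 151 CPM. Outside the 2 clusters the difference was smaller, at 245 CPM in KO and 335 CPM in WT. It was named as the member of the synaptic adhesion list past 2-fold.

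Other low genes rested on the nuclei outside the 2 clusters. Daam2 had 8.13 CPM in KO and 34.4 CPM in WT over all the nuclei, but 0.881 and 1.04 CPM in the Adora2a-Gpr6 cluster, against 20.6 and 81.5 CPM outside the 2 clusters. Nhsl1 and Mcc had the same pattern, with 8.84 CPM in KO and 45.9 CPM in WT for Nhsl1 and 31.4 and 94.04 CPM for Mcc outside the clusters, and at most 5.43 CPM within them. Nhsl1 leads a cluster with the astrocyte gene Slc1a3. Summed astrocyte markers in the nuclei outside the 2 clusters were 346 CPM in KO and 598 CPM in WT, and their part in these ratios was not tested. Adra1a, an adrenergic receptor gene, had 50.1 CPM in KO and 108 CPM in WT there, and 18.1 and 15.1 CPM in the Calcrl-Pde1c cluster.

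**Figure D3:**
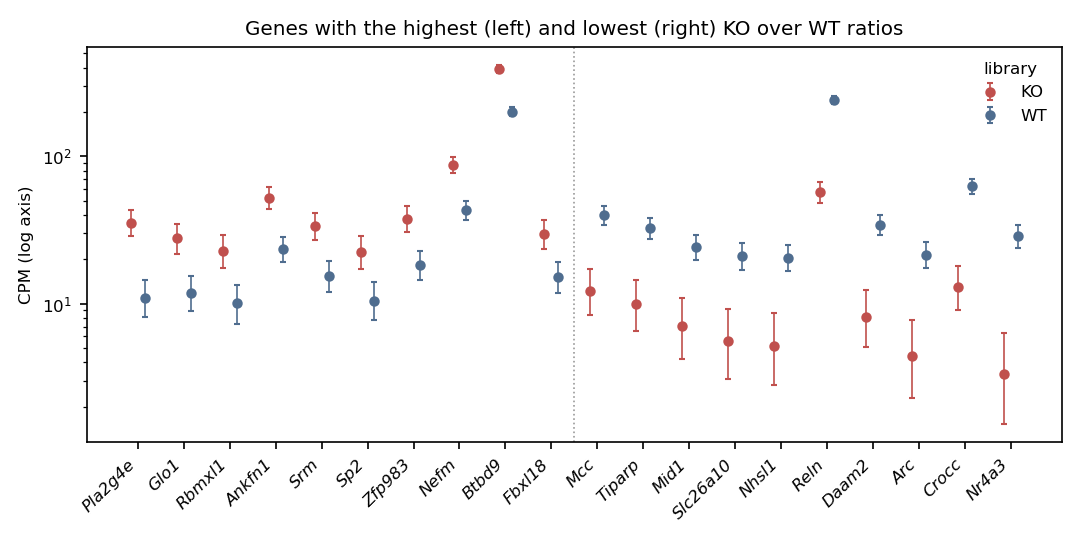
CPM on a log axis in KO (left of each pair) and WT Drd2 Htr4 Kctd8 nuclei for the 10 genes with the highest ratios (left of the dotted line) and the 10 with the lowest (right), with exact 95% intervals for counting error. No interval of KO overlaps that of WT for any of the 20 genes. They were picked by these ratios, so the gaps follow from the choice and are no support.

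The lowest median of the 29 gene lists compared was that of genes that neurons switch on after activity. Of its 30 genes 27 had at least 20 UMIs, 25 of them lower and 2 higher in KO, with a median ratio of -0.71. Of all genes 53% were lower and 47% higher, with a median of -0.02. A gene could reach that minimum through the WT library alone, but with a minimum of 1 UMI, over 29 genes, the median was also -0.71. At the minimum of 20 UMIs, 12 of 12 genes compared were lower in the Adora2a-Gpr6 cluster (median -0.75, with 51.9% of all genes lower and 48.1% higher). At the same minimum 11 of 11 were lower in the Calcrl-Pde1c cluster (-2.03, with 51.2% lower and 48.8% higher). Outside the 2 clusters it was 19 of 20 (-0.79, with 53.7% lower and 46.3% higher). Genes could pass the 20 UMIs within a cluster through WT alone, as did Nr4a3 with 3 UMIs in KO and 70 in WT of the Calcrl-Pde1c cluster. Counting every gene of the list with a UMI, 25 of 28 had lower CPM in KO in the Adora2a-Gpr6 cluster (52.4% of all genes), 25 of 28 in the Calcrl-Pde1c cluster (49.7%) and 25 of 29 outside both (54.5%), a count added after seeing the data. In other Drd2 nuclei 23 of 29 were lower (-0.38, with 48.9% lower and 51.1% higher). Summed over the list, the level was 557 CPM in KO and 852 CPM in WT in Drd2 Htr4 Kctd8 nuclei, 666 and 1319.5 CPM in those of the Calcrl-Pde1c cluster, 591 and 802 CPM in other Drd2 nuclei, and 605 and 901 CPM in all nuclei kept. The list was put together with earlier results of these data known.

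Many such genes carry cyclic AMP response elements near their start to which the factor CREB binds. Stretches upstream of Nr4a3, of Homer1 and of Nr4a1 are shown because these are members of the list that differ in the size of the shift and hold the element's letters. They are RefSeq promoter windows of build GRCm38.p6, 5′ to 3′ on the gene's strand, and hold no base of an exon of the GENCODE annotation, in which the Homer1 stretch lies inside the gene, downstream of its first start. Capitals mark the core of the element, TGACG on either strand (read as CGTCA on the other). The Nr4a3 stretch is chr4:48045055-48045152 (plus strand), that of Homer1 chr13:93303507-93303756 (plus) and that of Nr4a1 chr15:101266596-101266845 (plus).
Nr4a3: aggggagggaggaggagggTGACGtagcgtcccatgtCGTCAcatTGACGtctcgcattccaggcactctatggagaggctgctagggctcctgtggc
Homer1: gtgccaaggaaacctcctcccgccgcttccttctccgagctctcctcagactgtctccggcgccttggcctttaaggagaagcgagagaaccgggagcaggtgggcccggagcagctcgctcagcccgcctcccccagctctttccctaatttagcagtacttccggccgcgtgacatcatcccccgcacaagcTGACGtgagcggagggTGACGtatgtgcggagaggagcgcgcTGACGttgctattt
Nr4a1: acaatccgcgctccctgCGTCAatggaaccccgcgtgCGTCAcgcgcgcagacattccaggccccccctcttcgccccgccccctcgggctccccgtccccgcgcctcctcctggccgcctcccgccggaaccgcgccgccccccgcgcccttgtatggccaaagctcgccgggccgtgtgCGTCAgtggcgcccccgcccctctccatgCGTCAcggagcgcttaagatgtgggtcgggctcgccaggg
The stretches hold 3, 3 and 4 such cores, and a second Homer1 window, chr13:93307784-93308033, holds 0. In the 250 bases before the start, a core was present in 20 of 35 windows of activity-induced genes, which belong to 23 genes, and in 17.8% of 32851 windows of all genes. A match is a run of letters and not a bound site.

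Nr4a3, an orphan nuclear receptor gene, had 3.33 CPM in KO (1.52 to 6.31) and 28.8 CPM in WT (24.1 to 34.2), the lowest ratio of all named genes at -3.11 (-4.28 to -2.15). These are 9 UMIs in 7 KO nuclei and 129 UMIs in 40 WT nuclei, and 1 WT nucleus held 14.7% of them. The WT level was highest in the Calcrl-Pde1c cluster, with 5.43 CPM in KO and 96.3 CPM in WT, against 0 and 5.21 CPM in the Adora2a-Gpr6 cluster. Oligodendrocyte-like nuclei had 4.34 CPM in KO and 8.64 CPM in WT. The KO level was no higher than that in CPM, though the oligodendrocyte-like nuclei were shallower.

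Arc, the gene of a regulator of AMPA receptor traffic, had 4.44 CPM in KO and 21.4 CPM in WT (-2.27, -3.28 to -1.40), in 11 and 56 nuclei. Its level was lower in KO in each of the 3 sets of clusters and in other Drd2 nuclei, where it was 8.41 CPM in KO and 19.6 CPM in WT. Arc stood at 20.3 CPM in KO and 34.6 CPM in WT in oligodendrocyte-like nuclei, above the Drd2 Htr4 Kctd8 nuclei of the same library. Oligodendrocyte-like nuclei were shallower, so free RNA can take a larger share of their UMIs. They held 42 Arc UMIs in 1096 KO nuclei and 36 in 505 WT nuclei. Drd2 Htr4 Kctd8 nuclei held 12 in 239 KO and 96 in 391 WT nuclei, so CPM alone does not place Arc at background. Dusp14, a phosphatase gene, had 10.7 CPM in KO and 28.4 CPM in WT (-1.40, -2.04 to -0.81), with 14.5 and 59.2 CPM in the Calcrl-Pde1c cluster. Oligodendrocyte-like nuclei had 7.72 CPM in KO and 7.68 CPM in WT of it. Egr3, a zinc finger factor gene, had 9.98 CPM in KO and 22.8 CPM in WT (-1.19, -1.86 to -0.57), and oligodendrocyte-like nuclei had 14.5 and 15.4 CPM. With every nucleus thinned to 3000 UMIs the ratio of Dusp14 turned to 0.40. Few UMIs are left then and a count of 0 was set to 3 UMIs, the part of which was not tested. The thinned ratio therefore cannot settle a direction.

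The most abundant members of the list shifted less. Homer1, a postsynaptic scaffold gene with an activity-induced short form, had 343 CPM in KO (321 to 366) and 438 CPM in WT (419 to 458), a ratio of -0.35 (-0.47 to -0.24). Rheb, an activator of the mTOR kinase, had 33.3 CPM in KO and 57.2 CPM in WT (-0.78, -1.14 to -0.43). Neither was above the 61.3 and 57.6 CPM of the shallower oligodendrocyte-like nuclei, which alone does not place Rheb at background. Egr1 had 27.4 CPM in KO and 40.2 CPM in WT (-0.56, -0.97 to -0.16). The next 4 genes were chosen after their values were seen. Npas4, a neuron-specific factor gene, had 2.59 CPM in KO and 14.97 CPM in WT, Fosl2 2.59 and 11.4 CPM, Fos 2.22 and 7.60 CPM, and Nr4a1 19.96 and 32.8 CPM. Jun and Bdnf were the 2 that were not lower, with ratios of 0.49 (-0.53 to 1.499) and 0.03 (-1.45 to 1.41). The median share of mitochondrially encoded UMIs was 0.248% in KO and 0.574% in WT Drd2 Htr4 Kctd8 nuclei, and its part in these ratios was not tested.

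**Figure D4:**
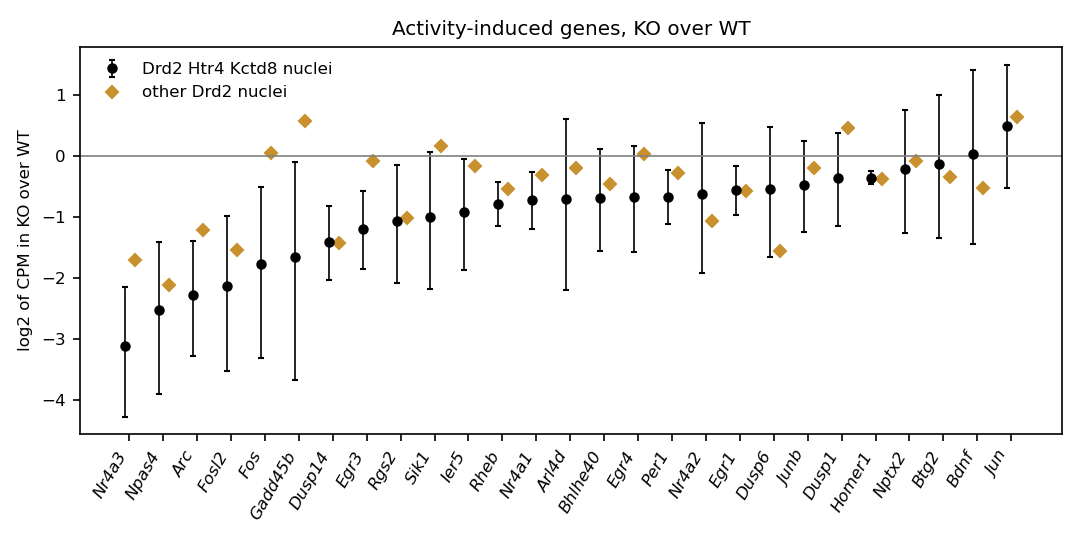
Log2 of CPM in KO over WT for the 27 activity-induced genes compared, sorted, in Drd2 Htr4 Kctd8 nuclei (black, with exact 95% intervals) and in other Drd2 nuclei (diamonds). All but 2 black points lie below 0, from -3.11 for Nr4a3 to -0.14 for the last below the line, and the diamonds run closer to 0 for several of the lowest genes.

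The enkephalin precursor gene and Gpr6, an orphan receptor gene of D2 medium spiny neurons, were higher in KO. Penk had 1641 CPM in KO (1594 to 1690.5) and 976 CPM in WT (947 to 1006), a ratio of 0.75 (0.69 to 0.81), with 2142 and 1213 CPM in the Adora2a-Gpr6 cluster, 2072 and 1494 CPM in the Calcrl-Pde1c cluster and 1549 and 889 CPM in other Drd2 nuclei. Oligodendrocyte-like nuclei held 755 CPM of Penk in KO (718 to 793) and 849 CPM in WT (793 to 906), the reverse order. Gpr6 had 107 CPM in KO and 63.7 CPM in WT (0.75, 0.51 to 0.99), against 18.8 and 26.9 CPM in oligodendrocyte-like nuclei. Gpr6 was chosen after its values were seen. Over the whole striatal list of 22 genes 13 were higher and 9 lower, with a median of 0.07. Slc32a1, the vesicular GABA transporter gene, had 73.9 CPM in KO and 54.3 CPM in WT (0.45, 0.17 to 0.72). Neither stood apart in CPM from oligodendrocyte-like nuclei, with 68.1 CPM (57.3 to 80.3) in KO and 63.4 CPM (49.0 to 80.6) in WT. Those were shallower, with 141 Slc32a1 UMIs in 1096 KO nuclei and 66 in 505 WT nuclei. Drd2 Htr4 Kctd8 nuclei held 200 in 239 KO and 243 in 391 WT nuclei, so CPM alone does not place Slc32a1 at background. Gad1 had 198 CPM in KO and 195 CPM in WT (0.03) and Gad2 243 and 256 CPM (-0.08).

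Channels, receptors and adhesion genes as groups stayed near the median of all genes. The potassium channel list had 15 genes higher and 15 lower in KO, with a median of -0.00, and the sodium and calcium channels 14 and 14. Of 23 glutamate receptor genes 11 were higher and 12 lower (-0.04), of 12 GABA-A subunit genes 7 were higher and 5 lower (0.04), and of 37 synaptic adhesion genes 21 were higher and 16 lower (0.07). Postsynaptic density scaffolds had 5 genes higher and 15 lower, with a median of -0.14, where 53% of all genes were lower. In other Drd2 nuclei 3 were higher and 17 lower (-0.16, with 48.9% of all genes lower), so this was not particular to these nuclei. Single genes stood further out. Kcnip3, a calcium-binding channel subunit that also acts as a transcriptional repressor, had 66.5 CPM in KO and 121 CPM in WT (-0.86, -1.12 to -0.62). Kcnq3, a subunit of the M current, had 1163 CPM in KO and 1385 CPM in WT (-0.25). Kcnip3 and Kcnq3 were chosen after their values were seen.

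Markers of glia were present in the same nuclei and differed between the libraries. All 7 microglia markers compared were higher in KO, with a median of 0.88, and summed to 128 CPM in KO and 72.6 CPM in WT. The sum was 273 and 136 CPM outside the 2 clusters, 42.3 and 26.0 CPM in the Adora2a-Gpr6 cluster, 34.4 and 35.8 CPM in the Calcrl-Pde1c cluster, where it was not higher in KO, and 154 and 74.4 CPM over all nuclei kept. Oligodendrocyte markers summed to 673 CPM in KO and 719 CPM in WT, with 352 and 307 CPM in the Adora2a-Gpr6 cluster and 1197 and 1326 CPM outside the 2 clusters. Their part in the ratios of other genes was not tested.

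**Figure D5:**
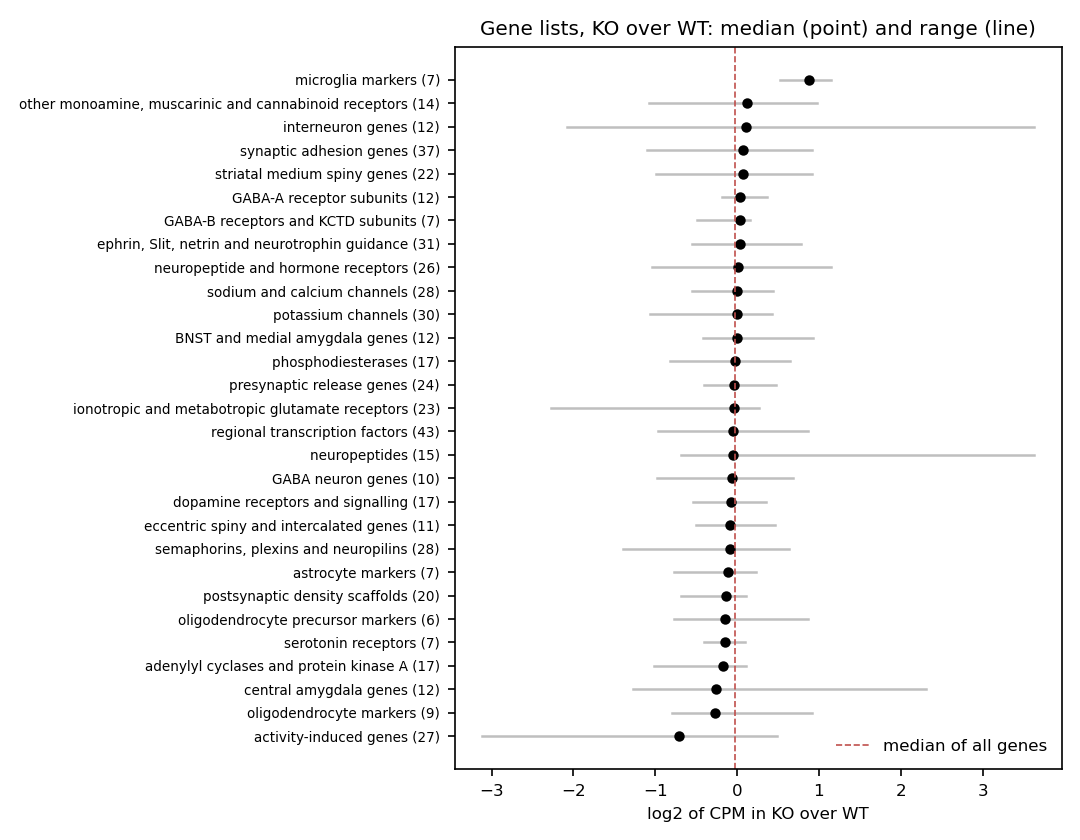
Median (point) and range (line) of the log2 ratio of CPM in KO over WT for 29 gene lists in Drd2 Htr4 Kctd8 nuclei, with the number of genes compared in brackets and the median of all genes as a dashed line at -0.02. Activity-induced genes lie lowest at -0.71 and microglia markers highest at 0.88, and the other lists lie between -0.27 and 0.12.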

How the data were processed

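The submitters deposited 1 filtered count matrix per library, with whole-number UMI counts per gene and barcode. Per the submitters' processing notes these were made with Cell Ranger 6.0.0 on mm10. The KO library held 8666 barcodes and 60402979 UMIs and the WT library 11060 barcodes and 85124128 UMIs, over 32285 genes. Nuclei with at least 500 genes and at most 5% mitochondrially encoded UMIs were kept. They held 59521417 UMIs in KO and 84569370 in WT.

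The rule for the nuclei was applied to raw UMIs. Clusters came from scanpy 1.11.5 and leidenalg 0.10.2 (2000 variable genes, 30 components, 15 neighbours, resolution 1). Scrublet, run per library with an expected 0.8% per 1000 nuclei, called 212 KO and 524 WT doublets, which were left in and counted. Clusters were named from markers, and the oligodendrocyte-like one served as the level of free RNA. Its nuclei were shallower and may express some genes themselves, so its CPM can exceed the share of free RNA in deeper nuclei. UMIs were summed per set and library and divided by the set's total. Ratios have exact conditional binomial intervals (scipy 1.17.1), CPM exact Poisson and shares exact binomial (Clopper-Pearson) ones, all at 95%, and a count of 0 was set to 3 UMIs in a ratio. Counting error is all they cover. With 1 library per genotype, no test was run. The ratio script was tested on simulated data.

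Single genes needed 100 UMIs and genes of lists 20. Named genes were the 10 highest and 10 lowest with at least 20 CPM in the higher library, the 10 lowest against other Drd2 nuclei, the 3 most abundant of each list and those past 2-fold, and a fixed set with the rule genes, Sema6d and its plexins. The nuclei, the lists and the rules were chosen with earlier results of these data known. Alternatives were other thresholds, scalings (edgeR 4.0.16 for TMM), thinning to 3000 UMIs, doublets left out and other sets of nuclei. Promoter windows are RefSeq's, of GRCm38.p6. Some genes that met the naming rule are not reported here.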

Additional observations from a re-analysis of the deposited data

How the results depend on the processing

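No paired analysis was possible because each genotype was 1 library. Depth limits the genes under about 100 UMIs, and the cause of the shifts below was not tested. TMM and median-of-ratios scaling shifted the median of all genes by at most 0.02. The activity-induced median lay between -2.03, in the Calcrl-Pde1c cluster alone, and -0.63 over the alternatives. Of the list medians between genotypes 352 alternatives moved by less than the spread and 10 by more. The alternatives of the Calcrl-Pde1c cluster alone and of both clusters without doublets were chosen after seeing the data.

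Genes at least 2-fold higher in KO (11) numbered 17 over all nuclei of the Adora2a-Gpr6 cluster, 19 with the mean of nuclei, 5 and 51 with minimums of 200 and 50 UMIs and 1 after thinning. Those lower (60) numbered 28 in both clusters without doublets, 34 over all nuclei of the Adora2a-Gpr6 cluster, 27 in its Drd2 Htr4 Kctd8 nuclei, 16 in those of the Calcrl-Pde1c cluster, 21 and 113 with the 2 minimums and 4 after thinning. Against other Drd2 nuclei the higher genes (0) numbered 6 with at least 2 Drd2 UMIs, 2 with a minimum of 50 UMIs and 45 against striatal-type nuclei. The lower ones (13) numbered 315 in the Adora2a-Gpr6 cluster, 25 with the mean of nuclei, 7 and 27 with the 2 minimums and 38 after thinning. How many genes pass the minimum can differ between these alternatives and is not given, so the counts are not shares.

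Between genotypes, GABA-A subunits had a median of -0.18 in the Adora2a-Gpr6 cluster (0.04 over all), and in the Calcrl-Pde1c cluster central amygdala genes had 0.26 (-0.26) and eccentric spiny genes 0.11 (-0.08). Oligodendrocyte markers (-0.27) had 0.32 in both clusters without doublets, 0.46 over all nuclei of the Adora2a-Gpr6 cluster, 0.23 in its chosen nuclei, 0.50 in the Calcrl-Pde1c cluster, 0.25 with the mean of nuclei and 0.55 after thinning.

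Against other Drd2 nuclei, the Adora2a-Gpr6 cluster alone gave medians in KO of -0.61 for GABA-B and KCTD genes, -1.48 for central amygdala, -2.20 for eccentric spiny, -1.07 for interneuron, -1.29 for neuropeptide and -0.53 for phosphodiesterase genes, -1.16 for oligodendrocyte and -1.01 for microglia markers (0.66 over all), and 0.40 for striatal genes. In WT it gave -1.56 for eccentric spiny, -0.79 for neuropeptide and -0.58 for phosphodiesterase genes, -0.67 for astrocyte, -1.005 for microglia and -0.84 for oligodendrocyte markers (0.90 over all), and 0.30 for striatal genes (-0.09 over all). The cluster was itself defined from expression, so its medians are a description. The mean of nuclei gave -1.06 in KO and -0.68 in WT for astrocyte, 0.13 and -0.78 for microglia and -0.71 and -0.092 for oligodendrocyte markers, and -0.014 in WT for striatal genes. Thinning gave 0.15 in KO and -0.016 in WT for striatal genes, and in WT -0.41 for astrocyte markers, -0.24 for oligodendrocyte markers and 0.0332 for GABA-B and KCTD genes. Striatal-type nuclei as the comparison gave 0.14 in KO and 0.0333 in WT for GABA-B and KCTD genes, -0.25 and -0.32 for striatal genes, -0.23 in KO for astrocyte markers, and in WT -0.065 for eccentric spiny genes and -0.043 for neuropeptides. Striatal-type nuclei were picked by Adora2a and Rgs9, which bears on the striatal medians. Without the need for a Gad UMI, astrocyte markers had -1.05 and oligodendrocyte markers -0.54 in KO, and with at least 2 Drd2 UMIs astrocyte markers had -0.10.

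Single ratios that turned were Adra1a in the Calcrl-Pde1c cluster (0.26), Ankfn1 over all nuclei of the Adora2a-Gpr6 cluster (-1.18), in its chosen nuclei (-3.05) and after thinning (-1.86), Dusp14 after thinning (0.40), and against other Drd2 nuclei Chat (0.80) and Chst9 (0.98) after thinning and Slc5a7 against striatal-type nuclei (0.56). Setting a count of 0 to 3 UMIs can turn ratios of so few UMIs, and its part in the thinned ones was not tested. The share of the nuclei was 2.16% in KO and 2.69% in WT in both clusters without doublets, and 0.641% and 0.669% after thinning, a ratio of 0.958.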
